A study of Mus musculus with 10 samples.

Results

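The untreated cultures of adipocyte precursors (APs) were examined as they stood on day 4, without IL-4. They are the 3 control mRNA-seq libraries, control 1, control 2 and control 3, of the 10 samples in the series, chosen by their labels. The series also holds 3 mRNA-seq libraries of APs given IL-4 and, at day 2, 2 control and 2 IL-4 libraries of small RNA. No level below comes from them, but the set of listed genes includes genes listed only in the IL-4 mRNA-seq libraries. APs came from the subcutaneous white adipose tissue of C57BL/6J mice. After collagenase digestion, cells carrying CD45 or CD31 were removed on magnetic columns, cells carrying SCA-1 were retained, and the retained cells were grown in serum-containing medium with no adipogenic cocktail. No transgene or deletion is named, and the age and sex of the mice, and whether the 3 cultures came from separate animals, are not given in the sources used here. The design text calls the 3 libraries biological replicates, and every SD below is the spread between them, which may be in part technical.

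APs are fibroblast-like cells of the fat stroma that divide, lay down matrix and, when given hormonal signals, turn on a cascade led by the C/EBP factors and PPARγ that ends in lipid storage and adipokine secretion. CD45 marks blood-derived cells, among them macrophages, CD31 marks endothelium, and SCA-1 (the product of Ly6a) marks mesenchymal progenitors. Cultured stromal cells on plastic often take on a contractile, matrix-secreting state with genes known from myofibroblasts.

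The libraries held 28617703, 28526782 and 28674604 expected counts, that is, reads assigned to genes with shared reads split between them. Levels are given as FPKM, fragments per kilobase of transcript scaled to library size, which allows genes of different length to be set side by side. At 1 FPKM or more in all 3 libraries, called detected here, stood 11674 of 18384 listed genes, or 63.5%, the share against which the lists below should be read. Listed genes are those in any mRNA-seq library of the series, and 17689 of them were listed in at least 1 control library. A further step up, 605 genes reached 100 FPKM in every library and 31 reached 1000 FPKM. Every pair of libraries differed by more than counting error. Over 13511 genes the median chi-square of a pair was 1.03 for controls 1 and 2, 1.77 for 1 and 3 and 2.35 for 2 and 3, where counting error alone gives 0.455. The biological coefficient of variation, edgeR's estimate of the spread between libraries beyond counting error, was 0.0668 over the 3 libraries and 0.0374 without control 3. Control 3 stood apart in macrophage genes and in the balance of short and long transcripts, as described at the end, so values are given for each library.

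The most abundant messenger RNAs were those of translation, iron storage and the extracellular matrix. Eef1a1, the elongation factor that brings aminoacyl-tRNA to the ribosome, had the highest mean, 4937 ± 198 FPKM (SD, n = 3). Ftl1 and Fth1, the light and heavy chains of the iron store ferritin, followed at 3338 ± 296 and 3122 ± 361 FPKM. Between them stood Col1a1, the α1 chain of type I collagen (Entrez 12842, chr11:94936224-94953042, mm10), with 3473, 3283 and 3167 FPKM in controls 1, 2 and 3. Its values did not overlap with those of its partner chain Col1a2, at 2538, 2533 and 2432 FPKM. Col1a2 was among 5 other matrix genes in the first 11 places. Of the rest, Postn, encoding periostin, had 2687 ± 41.0 FPKM, Bgn, encoding the proteoglycan biglycan, 2488 ± 60.9, Col3a1 2181 ± 26.5 and Sparc, a collagen-binding glycoprotein, 2132 ± 51.8 FPKM. The fifth place belonged to Lyz2, the lysozyme of myeloid cells (Entrez 17105, chr10:117277541-117282272), with 2522, 2469 and 3225 FPKM. Lyz2 shares reads with its near-identical neighbour Lyz1, so its level is uncertain to that extent, although the files gave Lyz2 an FPKM 15.7 ± 0.855 times that of Lyz1. The remaining places to the 20th were held by Gapdh, Actb, Tpt1, Lgals1, Rplp1, Rpl41, Spp1, Rps26, Ctsd and Tmsb4x, at means from 1428 to 2301 FPKM. Of these, Spp1, encoding the secreted phosphoprotein osteopontin, had 1446, 1446 and 1876 FPKM, and Ctsd, a lysosomal protease, 1410, 1361 and 1554 FPKM.

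**Figure D1:**
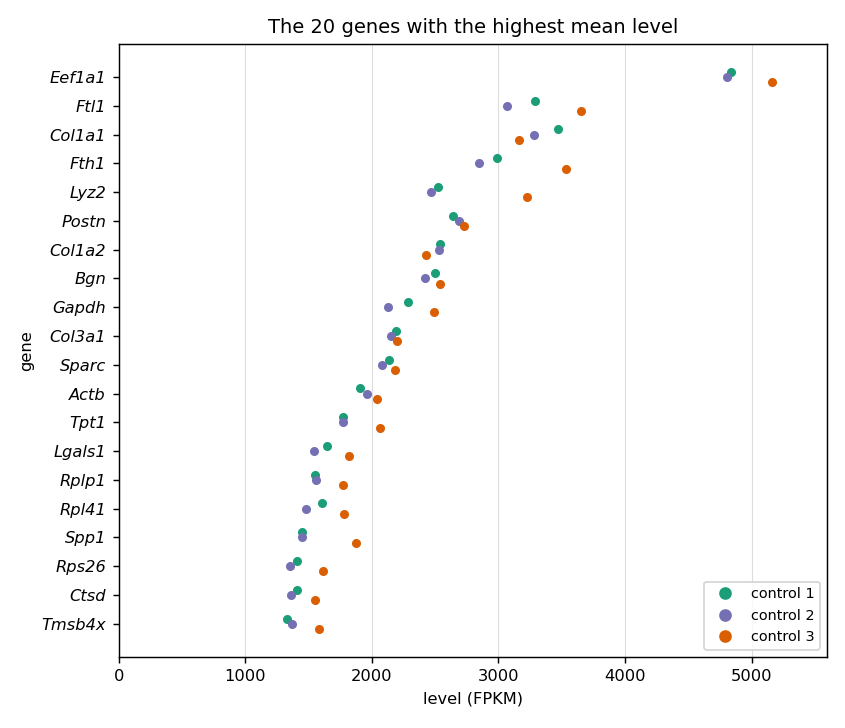
Level in FPKM (linear axis) of the 20 genes with the highest mean, 1 point per control library. Eef1a1 leads at a mean of 4937 FPKM. The orange points of control 3 lie to the right of the others for all genes but Col1a1 and Col1a2, where they lie to the left. Summed over all genes, FPKM was also highest in control 3, at 434423 against 414036 and 405313 in controls 1 and 2.

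Ribosomal protein genes made up 48 of the 100 genes with the highest mean FPKM, against 0.473% of all listed genes, and 23 of the 100 carried a Gene Ontology term for extracellular matrix, against 2.12% of listed genes. Genes with the matrix term held 18.1%, 18.2% and 17.4% of the counts in controls 1, 2 and 3. Collagen chains alone, 23 of 43 of them detected, held 6.25%, 6.17% and 5.91%. The 10 genes with most counts in a library took 9.57%, 9.59% and 9.14% of its reads and the 100 with most counts 24.5%, 24.5% and 24.0%.

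The antigens used in the isolation were all read in the cultures. Ly6a (Entrez 110454, chr15:74994877-74998031), the antigen selected for, had 131, 108 and 122 FPKM. Ptprc (Entrez 19264, chr1:138062859-138175756), encoding the depleted CD45, had 18.3 ± 1.16 FPKM from 2506, 2796 and 2798 counts, which placed it at rank 4106 of the listed genes. Pecam1 (Entrez 18613, chr11:106654213-106715281), encoding the depleted CD31, had 2.52, 2.41 and 2.22 FPKM from 205 to 234 counts. In each library Ly6a stood above Ptprc, by 6.63 ± 1.04 times, and Ptprc above Pecam1, by 7.71 ± 0.913 times, on the FPKM scale.

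Markers of fibroblasts and APs were detected for 15 of 16 genes, with a median of 204 FPKM against 4.34 FPKM over all listed genes. Pdgfra, a receptor that marks adipose stroma, had 55.4, 57.2 and 53.4 FPKM and its sister Pdgfrb 189.8 ± 14.8 FPKM. The surface glycoprotein Thy1 stood at 366 ± 12.4 FPKM, the collagen-binding proteoglycan Dcn at 245 ± 11.5, the microfibril genes Fbn1 and Mfap5 at 282 ± 40.3 and 218 ± 18.5, and the integrin subunit Itgb1 at 384 ± 14.1 FPKM. At the low end of this list were 2 antigens often used to sort progenitors from fresh tissue. Cd34 had 3.28, 3.03 and 3.80 FPKM, and Cd24a, with 0.98, 1.14 and 1.03 FPKM, was the member that missed the threshold.

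Lists for the stromal subtypes known from fresh subcutaneous fat differed in how many members were detected. Of 7 markers of interstitial progenitors, the least committed cells, 2 were detected, a count that depended on the unit and was 4 at a TPM of 1 and 5 at a CPM of 1 (counts scaled to library size alone). Dpp4 had 0.30, 0.40 and 0.22 FPKM, Pi16 0.76, 0.80 and 0.80, Cd55 0.95, 0.99 and 1.06, and Bmp7 had no count, while Sema3c, at 7.36 ± 0.524, and Anxa3, at 94.4 ± 8.51 FPKM, were detected. All 7 markers of committed preadipocytes were detected. They ranged from Dlk1, the secreted preadipocyte factor, at 1.76, 1.34 and 1.56 FPKM, through Icam1 at 22.5 ± 1.26, Cd36 at 40.4 ± 0.598 and Col15a1 at 42.2 ± 3.05, to the basement membrane chains Col4a1 at 178 ± 15.4 and Col4a2 at 151 ± 14.6 FPKM. All 6 markers of F3-positive stromal cells, a population described as holding back adipogenesis, were detected too, and both counts were the same at a TPM or a CPM of 1. F3, encoding tissue factor, had 492, 457 and 484 FPKM, Clec11a 10.3 ± 1.17 and Fmo2 3.78 ± 0.236 FPKM. Col4a1 and Col4a2 are also on the list of basement membrane and matrix fibre genes given below. The 3 lists of stromal subtypes are short, and the FPKM of a bulk culture does not tell whether their members were expressed in the same cells.

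Among the leukocyte lists, macrophage markers had by far the largest share of members detected, 20 of 23, with or without control 3, and a median of 55.0 FPKM. Csf1r, the receptor for the growth factor that macrophages depend on, had 83.9, 93.0 and 102 FPKM. Adgre1, encoding F4/80, had 51.2, 53.1 and 60.7 FPKM, and the lysosomal glycoprotein Cd68 232, 218 and 293 FPKM. In all 3 genes control 3 was the highest library by FPKM, as it was for 42.2% of all genes with a read. C1qa, C1qb and C1qc, the 3 chains of complement C1q, stood at 488 ± 92.9, 444 ± 83.0 and 377 ± 71.3 FPKM. The signalling adaptors Tyrobp and Fcer1g had 170.1 ± 35.3 and 328 ± 51.3 FPKM, the mannose receptor Mrc1 93.4 ± 10.6 and the myeloid transcription factor Spi1 43.9 ± 5.96 FPKM. The genes of the list below 1 FPKM were Cd163 at 0.84, 0.77 and 0.69 FPKM, Lyve1 at 0.33, 0.17 and 0.34 FPKM and Timd4, which had reads in control 2 alone at 0.02 FPKM, all 3 known from resident macrophage subsets. Summed over the list, macrophage markers had 5197, 5138 and 6706 FPKM, with Lyz2 as the largest term, and the members held 0.630%, 0.639% and 0.802% of the counts. In bulk RNA, fewer cells of a type and less RNA per cell cannot be told apart, so these shares are not shares of cells.

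**Figure D2:**
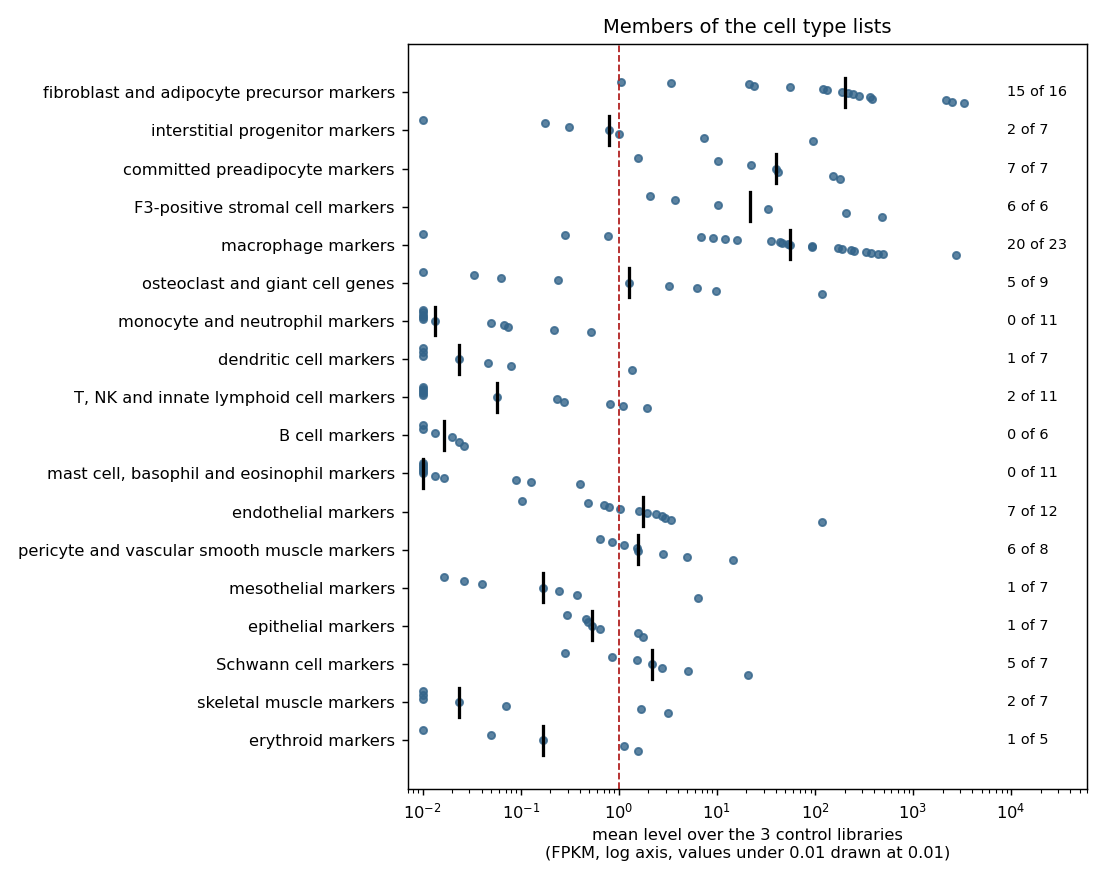
Mean level over the 3 control libraries, in FPKM on a log axis, of each member (points) of the cell type lists, with the list median (black bar), the threshold of 1 FPKM (dashed line) and, at the right, the members detected in every library of the members on the list. Fibroblast and AP markers and macrophage markers lie mostly above the line, with medians of 204 and 55.0 FPKM, and the lymphocyte, granulocyte and mast cell lists mostly below it.

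The defining markers of other leukocytes were at or near 0. None of 11 markers of monocytes and neutrophils was detected, or 1 at a TPM or a CPM of 1. Ly6g had 0, 0 and 0.04 FPKM, S100a8 0.11, 0 and 0.54, and S100a9 0, 0.15 and 0 FPKM. None of 6 B cell markers was detected and none of 11 for mast cells, basophils and eosinophils, or 1 of these 11 at a CPM of 1. Ms4a1, Cd79a, Cpa3, Kit and Ms4a2 were at means of 0.403 FPKM or lower. Of 7 dendritic cell markers 1 was detected, Zbtb46 at 1.35 ± 0.266 FPKM, and Flt3 and Xcr1 stood at 0.10 FPKM or lower in every library. Of 11 markers of T cells, NK cells and innate lymphoid cells, 2 were detected, Lck at 1.10 ± 0.0404 and Il7r at 1.93 ± 0.255 FPKM, while Cd3e, Cd3d and Cd3g, the chains that define T cells, are unlisted. Of 9 osteoclast and giant cell genes 5 were detected. Ctsk, a collagen-degrading protease that fibroblasts also make, had 117 ± 5.44 FPKM, Acp5 3.21 ± 0.165, Calcr is unlisted, and the fusion genes Dcstamp and Ocstamp 0.0333 ± 0.0231 and 0.0633 ± 0.0252 FPKM. No read in a library leaves room for a true level of up to 3 counts there, or 0.105 CPM.

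Vascular, neural and covering cell types gave low levels. Among endothelial markers 7 of 12 were detected, or 11 at a TPM or a CPM of 1, but apart from Pdpn, which fibroblasts share with lymphatic vessels and which stood at 117 ± 3.88 FPKM, the highest was the junction cadherin Cdh5 at 3.42, 3.37 and 3.34 FPKM. The VEGF receptor Kdr had 1.92 ± 0.229 FPKM and the lymphatic factor Prox1 0.103 ± 0.0416 FPKM. Of 8 markers of pericytes and vascular smooth muscle 6 were detected, led by Mcam at 14.6 ± 1.29 FPKM, with Rgs5 at 0.857 ± 0.190, Cspg4 at 4.86, 5.6 and 4.55 and Myh11 at 1.55 ± 0.223 FPKM. Schwann cell markers were detected for 5 of 7 genes, among them the glial factor Sox10 at 4.64, 5.04 and 5.64 FPKM and the neurotrophin receptor Ngfr at 20.6 ± 0.620 FPKM. Mesothelial and epithelial markers were detected for 1 of 7 genes each, Krt19 at 6.37 ± 0.447 and Krt18 at 1.76 ± 0.0436 FPKM, with Krt8 at 1.69, 0.99 and 2.01 FPKM and Msln, Upk3b, Lrrn4, Epcam and Cdh1 at means of 0.48 FPKM or lower. Of 7 skeletal muscle markers 2 were detected, Acta1 and Tnnt3, at 3.21 ± 0.472 and 1.68 ± 0.214 FPKM. The satellite cell factors Pax7 and Myf5 are unlisted and Myod1 had 0, 0.02 and 0 and Myog 0, 0.02 and 0.05 FPKM. Among 5 erythroid markers only Hbb-bs was detected, at 1.29, 1.97 and 1.41 FPKM, and it shares reads with other globin genes. Hba-a1 had 1.09, 1.61 and 0.66 FPKM and Alas2 0.04, 0.07 and 0.04 FPKM.

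Genes of the contractile and matrix-secreting state were detected throughout, 16 of 16 with a median of 292 FPKM. Acta2, encoding smooth muscle α-actin, had 819, 779 and 791 FPKM, and Tagln, an actin-binding protein, 567, 518 and 568 FPKM. The tropomyosin gene Tpm1 stood at 450.3 ± 27.9 FPKM and the calponin gene Cnn1 at 30.5 ± 1.84 FPKM, while the smooth muscle myosin Myh11 was at 1.55 FPKM, as given above. Lox, the enzyme that crosslinks collagen, had 795 ± 37.4 FPKM and Thbs1, which releases TGF-β from its latent form, 1110, 1219 and 987 FPKM. Fn1, encoding fibronectin, had 1349, 1454 and 1100 FPKM. Ctgf and Cyr61, known targets of the Hippo pathway's effector YAP, had 209 ± 8.44 and 189 ± 0.950 FPKM. Thbs1 and Fn1 were lowest in control 3. All 25 genes of basement membrane and matrix fibres were detected, from Lama2 at 7.11 ± 0.904 to Postn at 2687 ± 41.0 FPKM, with a list median of 179 FPKM. The list shares Fn1, Postn and Tnc with the myofibroblast list.

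The factors that start adipogenesis were expressed, and the genes that define a finished adipocyte were not or barely read. Among adipogenic transcription factors 17 of 18 were detected, with a median of 16.4 FPKM. Pparg (Entrez 19016, chr6:115360879-115490404), the master regulator, had 5.86, 5.55 and 5.54 FPKM from 280 to 300 counts. Cebpa, its partner late in the cascade, had 16.5, 15.9 and 17.4 FPKM, and the early factors Cebpb and Cebpd 74.7, 73.5 and 92.0 FPKM and 21.5, 22.7 and 23.8 FPKM. Within each library Cebpb thus stood highest of these 4 and Pparg lowest. Ebf1, a factor of the adipocyte lineage, had 24.4 ± 0.586, Srebf1, which drives lipid synthesis, 29.4 ± 0.101, Klf4 16.2 ± 0.335 and Klf5 1.49 ± 0.294 FPKM. Zfp423, which marks white preadipocytes, was the exception at 0.95, 1.22 and 0.80 FPKM, on either side of the threshold. Bulk FPKM does not tell which cells of a culture expressed these factors, and macrophage genes were read in the same libraries.

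Of 20 mature adipocyte genes 8 were detected, and the list median was 0.0733 FPKM. Adipoq, encoding adiponectin, had no read in controls 1 and 2 and 3 counts in control 3, or 0.09 FPKM. Plin1, which coats the lipid droplet, had 0, 0 and 0.04 FPKM, and Lep, Cidec and Retn are unlisted. The complement factor Cfd (adipsin) and the glucose transporter Slc2a4 had 0.0400 ± 0.0400 and 0.107 ± 0.00577 FPKM. The detected members were those of lipid handling that other cells use as well. Lpl, the lipoprotein lipase, had 160, 159 and 163 FPKM, Scd1, a fatty acid desaturase, 48.6, 49.6 and 46.3, Fabp4, a fatty acid carrier also known from macrophages, 32.8, 33.1 and 38.6, and Fasn, the fatty acid synthase, 32.2, 33.8 and 27.5 FPKM. Pnpla2, Acsl1, Lipe and Dgat2 followed at means from 1.85 to 14.7 FPKM.

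Thermogenic genes were detected for 5 of 17 members with a median of 0.0800 FPKM. Ucp1, the uncoupling protein of brown and beige fat, had 0, 0 and 0.02 FPKM. Ppargc1a, the coactivator of mitochondrial biogenesis, had 0.04, 0.05 and 0.01 FPKM, Tmem26 0.09, 0.10 and 0.17 FPKM, and Ear2 no count in any library. Prdm16, the switch toward the brown fate, had 0.68, 0.67 and 0.79 FPKM. The detected members were Cox7a1, Lhx8, Ebf2, Pdk4 and Tbx1, at means from 1.79 to 3.10 FPKM. The white marker Slc7a10, outside the lists, had 0.07, 0 and 0 FPKM.

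**Figure D3:**
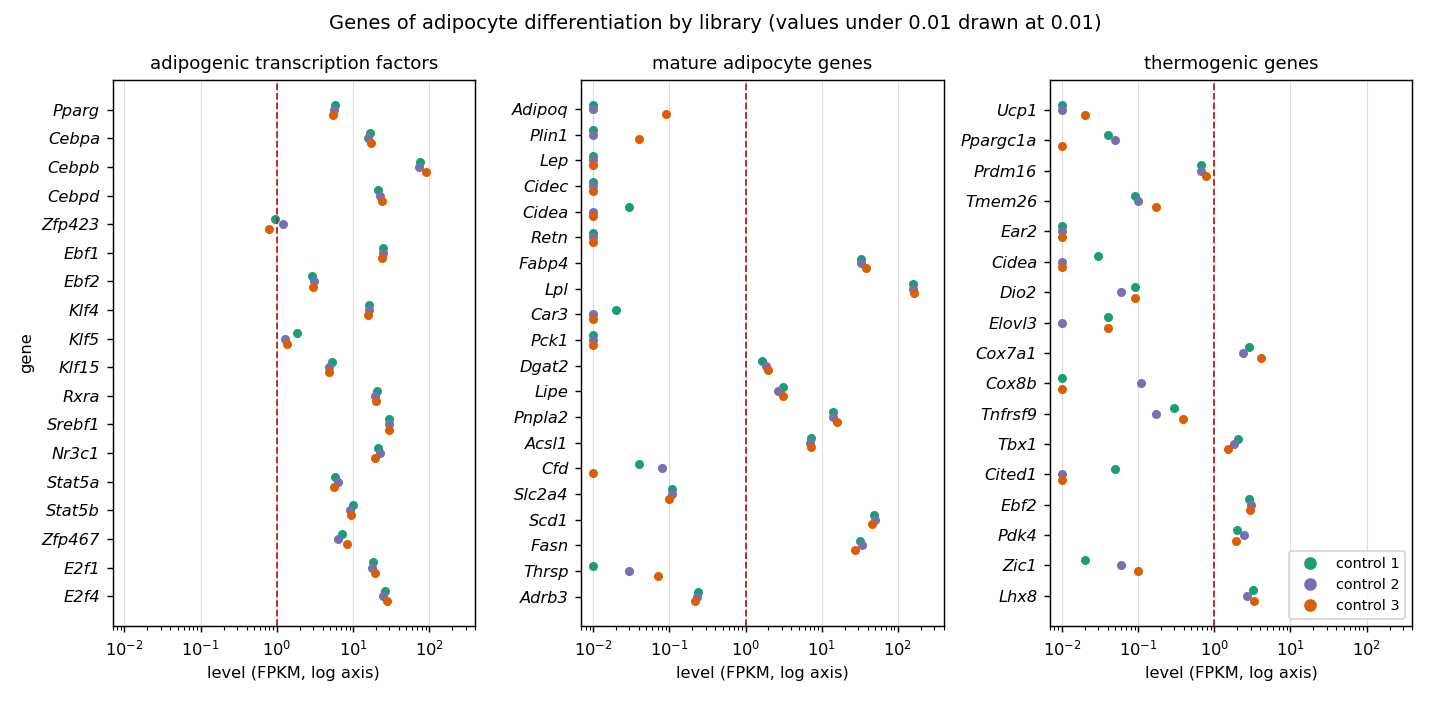
Level in FPKM (log axis, values under 0.01 drawn at 0.01) of each member of the lists of adipogenic transcription factors, mature adipocyte genes and thermogenic genes, 1 point per control library, with the threshold of 1 FPKM dashed. Pparg, Cebpa, Cebpb and Cebpd lie right of the line in all libraries, while Adipoq, Plin1, Lep and Ucp1 lie at 0.09 FPKM or lower.

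Genes that restrain adipogenesis were detected for 12 of 15 members. Gata2 had 1.27 ± 0.0404 and Gata3 0.277 ± 0.0404 FPKM. Ctnnb1, encoding β-catenin, had 198 ± 3.45 FPKM, Tgfb1 92.3 ± 4.95, and Zfp521, an antagonist of the Ebf1 program, 12.7 ± 0.895 FPKM, while the ligands Wnt10b and Wnt6 had 0.107 ± 0.0493 and 0.303 ± 0.129 FPKM. Fzd6, a Wnt receptor, had 1.28, 1.47 and 1.34 FPKM. For bone and cartilage, the other fates of mesenchymal cells, 4 of 11 genes were detected. Runx2, the osteoblast factor, had 9.04 ± 0.364 FPKM, but Sp7, next in that cascade, 0.233 ± 0.110 and Bglap, encoding osteocalcin, 0.0267 ± 0.0462 FPKM. Spp1, at 1589 ± 248 FPKM, is made by bone cells but also by macrophages.

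The cultures expressed every gene of the cell cycle lists. All 19 genes of G1/S were detected, at means from 2.54 FPKM for the licensing factor Cdc6 to 113 FPKM for the polymerase clamp Pcna, with 107, 110.3 and 122 FPKM. The helicase subunits Mcm2 and Mcm3 had 20.9, 20.9 and 21.1 FPKM and 23.5, 23.5 and 26.7 FPKM. All 20 genes of G2/M were detected as well, at means from 5.98 to 83.9 FPKM. Mki67, which marks dividing cells, had 33.9, 38.1 and 33.1 FPKM, Top2a, the topoisomerase that untangles replicated DNA, 45.7, 49.2 and 45.4, and Ccnb1, the mitotic cyclin, 30.2, 30.9 and 33.1 FPKM. On scaled counts 17 of the 19 and 13 of the 20 genes were higher in control 3 than in the mean of the other libraries. Over all detected genes that share was 52.9%. The median log2 ratios were 0.11 and 0.09, less than the 0.31 of the macrophage markers given below. After centring by transcript length, as described at the end, both ratios were 0.06. Then 16 and 17 of these genes were higher in control 3, against 50.0% of all detected genes. Among 15 cyclins D and cell cycle inhibitors, all detected, Ccnd1 had 55.9, 61.8 and 59.3 FPKM, Ccnd2 86.6 ± 9.98 and Ccnd3 53.1 ± 3.20 FPKM. Cdkn1a, the inhibitor p21, stood above them at 107 ± 5.20 FPKM, and Cdkn2a, the locus of p16 and p19ARF, had 15.1, 14.5 and 18.3 FPKM. Of the immediate early genes, switched on within minutes of serum or handling, 12 of 13 were detected, with Fos at 4.66 ± 0.240, Fosl1 at 3.83 ± 0.445, Egr1 at 24.9 ± 1.19 and Myc at 27.1 ± 1.69 FPKM and Fosb at 0.650 ± 0.104 FPKM, under the threshold.

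Genes of body position were expressed unevenly between clusters. HOX genes, numbered in each cluster in the head-to-tail order of their embryonic domains, were detected for 24 of 39 members. By cluster these were 7 of 11 for Hoxa, 8 of 10 for Hoxb, 8 of 9 for Hoxc and 1 of 9 for Hoxd. The Hoxc cluster had the highest sum, 103, 92.4 and 102 FPKM, followed by Hoxb at 61.8, 58.4 and 61.2, Hoxa at 26.6, 26.3 and 27.4 and Hoxd at 8.73, 9.41 and 8.02 FPKM, and the ranges of the 4 clusters did not overlap. The highest members were Hoxc10 at 35.8, 31.2 and 34.3 FPKM, Hoxc6 at 30.9, 27.3 and 31.0 and Hoxb9 at 22.2, 22.0 and 21.3 FPKM. Hoxc10 stood above Hoxc6 in each library, although its lowest value, 31.2, lay close to the highest of Hoxc6, 31.0, and Hoxb9 lay below both. Hoxa2 and Hoxa3, toward the near end, had 0.767 ± 0.0416 and 2.13 ± 0.111 FPKM. At the far end of the clusters, Hoxc13 was detected at 2.76 ± 0.300 FPKM, Hoxb13 had 0.05 ± 0.0173 FPKM, and Hoxa13 and Hoxd13 are unlisted. Of 15 other genes of depot identity 11 were detected. Shox2, Irx1 and Tbx15, homeobox and T-box factors, had 38.2 ± 0.941, 31.3 ± 0.455 and 25.8 ± 0.530 FPKM, and the limb mesenchyme factors Prrx1 and Twist1 94.1 ± 4.41 and 30.8 ± 2.47 FPKM. En1 had 9.80 ± 0.490 FPKM. Wt1 and Tcf21, known from visceral fat, had 0.243 ± 0.102 and 0.0400 ± 0.0173 FPKM, and Zic1, known from brown fat, 0.0600 ± 0.0400 FPKM.

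**Figure D4:**
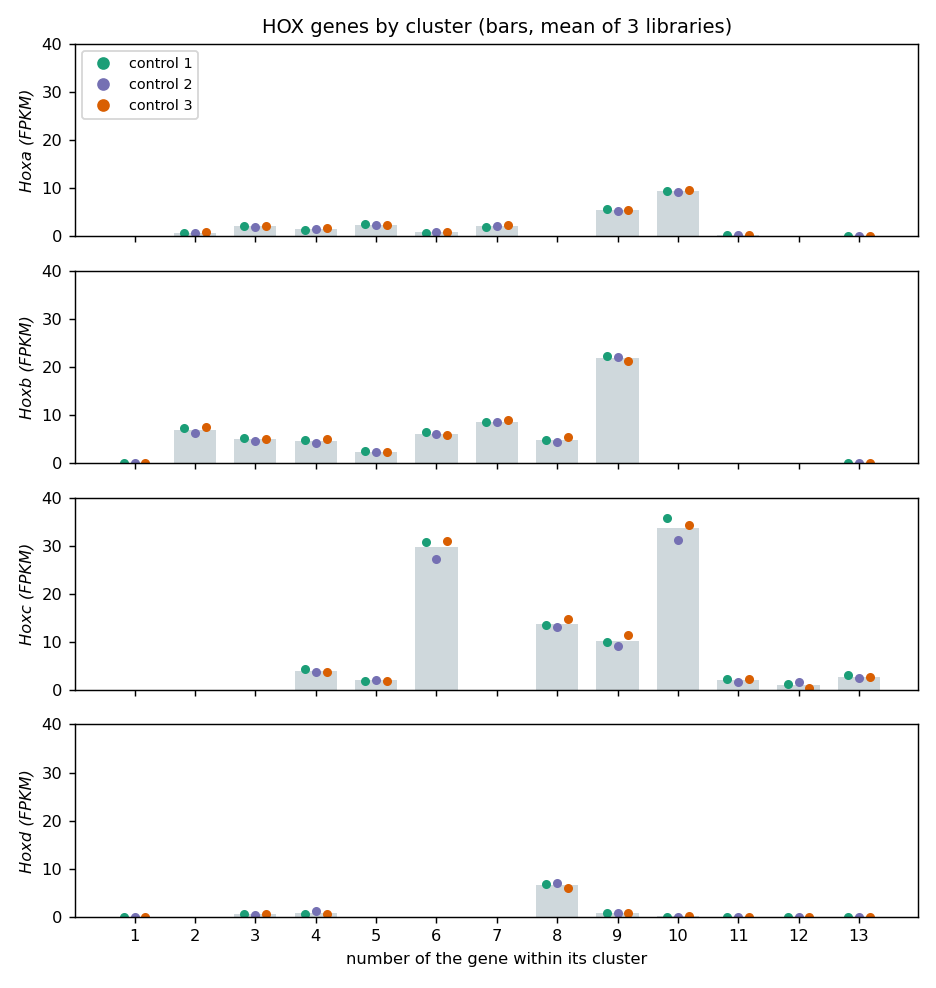
Level in FPKM (linear axis from 0, the same for each panel) of the HOX genes by cluster and number, with bars for the mean of the 3 libraries and points for each library, and unlisted genes drawn at 0; empty numbers were not plotted. Hoxc10, Hoxc6 and Hoxb9 are the tallest, and in the Hoxd panel only Hoxd8, at 6.55 FPKM, stands clear of 0.

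The receptor and signalling genes of IL-4 were read in these cultures, which were given none. Of 16 pathway genes 13 were detected. Il4ra, the receptor chain that binds IL-4, had 88.4, 87.5 and 89.5 FPKM. Its partners Il13ra1, of the type II receptor, and Il2rg, of the type I receptor, had 20.9 ± 0.225 and 9.60 ± 1.34 FPKM, and the transcription factor Stat6, which the receptor activates, 41.8, 39.7 and 41.3 FPKM. Il2rg was highest in control 3, at 11.2 FPKM against 8.76 and 8.89. The kinases Jak1, Jak2 and Jak3 had 71.3 ± 4.89, 20.3 ± 1.16 and 6.30 ± 0.502 FPKM. Il13ra2, a decoy receptor, had 0.16, 0.07 and 0.17 FPKM, Il4 itself is unlisted and Il13 had 0, 0 and 0.03 FPKM.

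Growth factors of macrophages and their receptors were both read, 10 of 13 genes being detected. Csf1, a ligand of CSF1R made by stroma, had 163, 151 and 143 FPKM and stood above Csf1r in each library, by 1.66 ± 0.269 times, with control 3 lowest for the ligand and highest for the receptor. Il34, the other ligand of that receptor, had 1.20 ± 0.126 FPKM, and Csf2 is unlisted. Cx3cl1, the ligand fractalkine, had 6.88 ± 0.301 and its receptor Cx3cr1 16.0 ± 1.76 FPKM. Inflammatory mediators were detected for 16 of 23 genes. The stromal chemokine Cxcl12 led at 278 ± 5.02 FPKM, with the monocyte attractants Ccl2 at 99.7, 104 and 109.7 FPKM and Ccl7 at 91.9 ± 8.86 FPKM, whereas Il6 had 1.72 ± 0.231, Il1b 0.0800 ± 0.0300, Il1a 0.0600 ± 0.0265 and Nos2 0.137 ± 0.0551 FPKM. Tnf had 5.01 ± 0.462 FPKM and Il1rn, the antagonist of IL-1, 24.4 ± 0.497 FPKM. Interferon-stimulated genes were detected for 10 of 13, among them Bst2 at 73.0 ± 10.5, Isg15 at 19.7 ± 4.05, Ifit1 at 5.25 ± 0.679 and Ifit2 at 7.88 ± 0.136 FPKM. Mx1, at 0.360 ± 0.154 FPKM, was under the threshold.

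Xist, the RNA that coats the inactive X chromosome of female cells, and genes of the Y chromosome were read in the same libraries. Xist had 41.9, 43.7 and 33.5 FPKM, Ddx3y 2.81, 3.07 and 2.79, and Eif2s3y 2.58, 2.51 and 2.51 FPKM. Both were thus present in each library. Xist was lowest in control 3, and none of the 5 sex chromosome genes was highest there. Control 3 also differed in the balance of short and long transcripts, as described at the end, and the part of this in the Xist level was not tested. Uty and Kdm5d had 0.783 ± 0.0306 and 0.530 ± 0.0361 FPKM, leaving 3 of 5 sex chromosome genes detected, or 5 at a TPM or a CPM of 1. All 12 imprinted genes with a role in growth were detected. H19, a maternally expressed RNA, had 86.5, 79.3 and 102 FPKM and its paternally expressed neighbour Igf2 1.49, 1.24 and 1.47 FPKM. Likewise Meg3 and Rian had 68.5 ± 8.65 and 48.7 ± 1.71 FPKM, against 1.55 ± 0.210 FPKM for Dlk1 of the same domain.

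Control 3 differed from the other libraries in a way that followed transcript length. On TMM-scaled counts the median log2 ratio of control 3 to the mean of controls 1 and 2 was 0.17 among the shortest and -0.20 among the longest of 10 equal bins of detected genes by transcript length. The log2 ratio of control 2 to control 1 ran the other way, from -0.06 to 0.07. All 20 detected macrophage markers were higher in control 3, by a median log2 ratio of 0.31, against 52.9% of all detected genes, and all 20 remained higher, by 0.21, once each gene was centred on the median of its length bin. The matrix list had a median log2 ratio of -0.21 before and -0.07 after centring, and the list of fibroblast and AP markers 0.01 and 0.02. Of 14 genes listed as IL-4 response genes of macrophages, 2 were detected, Arg1 and Mrc1. This list, like the others, was chosen with earlier results of these data known. Counted over the whole list, 12 of the 14 had their highest FPKM in control 3, where 42.2% of all genes with a read had theirs, though most members lay under 1 FPKM in every library. Chil3, a chitinase-like secreted protein, had 4, 9 and 77 counts, Retnla, a resistin-like secreted protein, 2, 2 and 18, and the arginase Arg1 64, 62 and 169 counts. For these 3 genes control 3 thus lay above controls 1 and 2, at 1.82, 1.19 and 4.15 FPKM. In controls 1 and 2, however, Chil3 and Retnla had 9 counts or fewer. The part of transcript length and of macrophage RNA in these differences was not tested.

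**Figure D5:**
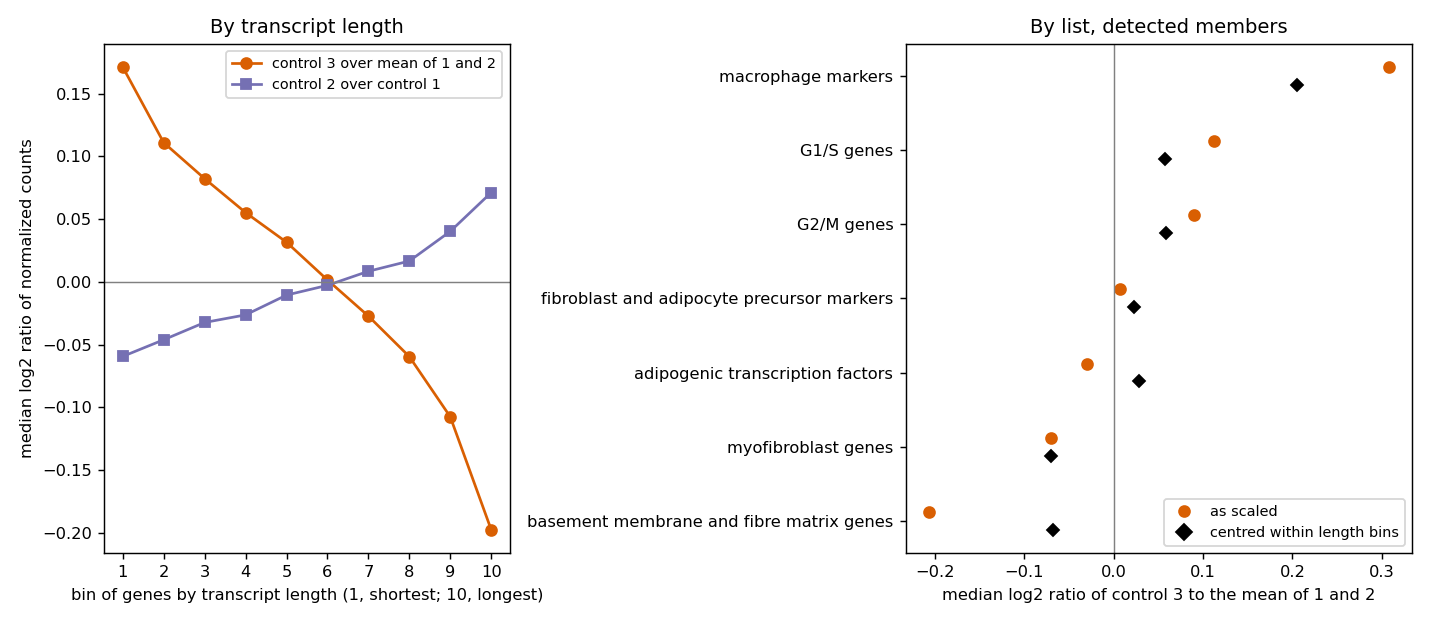
Left, median log2 ratio of normalized counts in 10 bins of transcript length, for control 3 over the mean of controls 1 and 2 (circles) and control 2 over control 1 (squares); right, median log2 ratio of control 3 to the mean of the other libraries over the detected members of 7 lists, as scaled (circles) and centred within length bins (diamonds). The circles at left fall from 0.17 to -0.20, and at right the macrophage markers stand highest at 0.31 and 0.21.

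Few single genes set a library apart. Of 11416 genes with a mean of 100 or more normalized counts, 5, or 0.0438%, had a value in 1 library over 2 times the highest or under 1/2 of the lowest of the others. They were Rn18s, the 18S ribosomal RNA, with 8881, 7858 and 19758 normalized counts, the paralogs Tmem254b and Tmem254c, Pakap and 0610010B08Rik, all with fractional counts shared with other genes. Tmem254b had 73.1, 629 and 14.4 and Tmem254c 587, 27.2 and 671 normalized counts, so that in each library the member with more reads stood far above its paralog. Among genes with whole counts, the most extreme in control 3 were the interferon-stimulated gene Rsad2 and the macrophage marker Aif1, at 1.78 and 1.73 times the mean of the others, and Zbed6 and D830031N03Rik, at 0.484 and 0.465 times.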

How the data were processed

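Poly-A RNA was sequenced on BGISEQ-500. The authors filtered reads with SOAPnuke, mapped them with HISAT to mm10, and quantified genes with Bowtie2 and RSEM on RefSeq transcripts; StringTie is also named in the submitters' processing notes. Versions are not given in the sources used here. The deposited files hold expected counts, not normalized, and FPKM, scaled by the authors for transcript length and library size. A gene absent from a library's file was taken as 0. A row without a gene, at most 0.000225% of a library's counts, was left out, and 26 date-like symbols were identified by Entrez number. Coordinates are RefSeq, GRCm38.p6 (mm10).

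FPKM were used as deposited. For the spread, rounded counts passed filterByExpr (at least 10 counts, 15 in total), TMM scaling and an intercept-only fit in edgeR 4.0.16 (R 4.3.3), checked on simulated data. No groups were compared and no test was run. Log2 ratios used a pseudocount of 1 normalized count. Of the counts above 0, given to 2 decimals, 87.0% to 87.2% per library were exactly whole. Named were the sorting antigens, the 20 genes highest in mean FPKM, members of 38 lists (485 genes, of which 320, or 66.0%, were detected), genes named by the study, and extremes per library. Most list members enter only the counts of their list, and some items are not reported here. The members and lists were chosen with earlier results of these data known. Alternatives covered thresholds, units, scaling and each library left out. Counting limits cover counting error only.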

Additional observations from a re-analysis of the deposited data

How the results depend on the processing

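At 0.1 FPKM, 5 counts, a mean of 1 FPKM, a TPM of 1 or a CPM of 1, between 11850 and 14161 genes and between 327 and 386 list members were detected, within 1.5 times of the 11674 and 320 reported. At 10 FPKM there were 6139 genes and 185 members. By summed FPKM the 10 most abundant genes held 7.08% and the 100 most abundant 27.2%, against 9.43% and 24.3% of counts. Of the genes set apart in 1 library, 41 were counted at a minimum mean of 20 and 2 at 500, 39 at 1.5-fold and 2 at 3-fold. The coefficient of variation ran from 0.0374 without control 3 to 0.0867 without control 1. DESeq2 size factors, library totals and upper-quartile scaling left it between 0.0671 and 0.0677 and the genes set apart at 5. At a CPM of 1 the members detected moved by over 1.5 times for 8 of 38 lists, and at a TPM of 1 for 6. Without a library, detected members changed by over 1.5 times for 2 of 38 lists, epithelial (2 without control 2) and erythroid markers (2 without control 3). The length-centred ratios of control 3 and the count of genes highest there were added after the data were seen. No paired analysis was possible because no groups were compared.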

Other observations

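The gene groups that follow were picked after their values had been seen and are given as levels only. Genes known from lipid-associated macrophages were all detected, 12 of 12, with a median of 352 FPKM. The lipid receptor Trem2 had 63.8, 61.1 and 81.1 FPKM, Apoe, a lipid carrier, 498, 449 and 655, Gpnmb 174, 156 and 179, and Lgals3, a galectin, 337, 303 and 401 FPKM, with control 3 highest in all 4. Over the whole list 11 of the 12 had their highest FPKM in control 3, where 42.2% of all genes with a read had theirs. Stromal cells also express several of these genes, and Lpl is on the mature adipocyte list as well. Of 10 other tissue macrophage genes 9 were detected, among them Folr2 at 37.3 ± 3.44 and Ms4a7 at 55.6 ± 12.0 FPKM, with Marco at 0.570 ± 0.202 FPKM the exception. Of 8 genes of antigen presentation 5 were detected, close to the share over all genes. Cd80, a costimulatory ligand, had 4.29, 4.46 and 4.65 FPKM, Itgax 1.61 ± 0.243 and Cd86 1.52 ± 0.173 FPKM. Cd74, the invariant chain of MHC class II, had 1.51 ± 0.0964 FPKM, H2-Aa 0.0667 ± 0.0351, H2-Eb1 0.28 or lower in each library, Ciita, the class II transactivator, 0.00333 ± 0.00577, and H2-Ab1 1.59, 1.59 and 2.67 FPKM.

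Matrix-degrading enzymes and their inhibitors were detected for 9 of 9 genes. Mmp14 and Mmp2, the membrane-bound activator and its gelatinase target, had 375 ± 9.49 and 346 ± 12.0 FPKM, the inhibitors Timp1, Timp2 and Timp3 288 ± 12.8, 276 ± 4.15 and 447 ± 21.6 FPKM, and Mmp9 1.27 ± 0.126 FPKM. Among secreted Wnt antagonists 5 of 9 were detected. Sfrp1 led at 286, 295 and 283 FPKM, followed by Sfrp2 at 54.5 ± 4.61 and Dkk3 at 29.9 ± 1.19 FPKM, while Dkk1 had no count. Of 35 genes annotated to chemokine activity 18 were detected, and after Cxcl12, Ccl2 and Ccl7 came Ccl12 at 50.5 ± 8.44 and Ccl6 at 37.3 ± 2.70 FPKM. Of 122 genes annotated to growth factor activity 62 were detected, led by the matricellular gene Nov at 307 ± 10.7 FPKM. Among 592 genes annotated as DNA-binding transcription factors, the stress-response factors Atf5 and Atf4 followed at 254 ± 14.1 and 214 ± 15.3 FPKM after Nme2 at 337 ± 19.3 FPKM, and Hif1a, the oxygen-sensing factor, came next at 139 ± 8.22 FPKM.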
